A study of Mus musculus with 10 samples.

Results

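The genes described here are 10 that mark pluripotent cells in mouse: Pou5f1, Nanog, Tdgf1, Tdh, Fgf4, Dppa5a, Gdf3, Zfp42, Klf2 and Klf4. They were chosen by symbol from the 28227 genes of the deposited tables. All 10 have a row in the bulk table, and 9 have a row in at least 1 of the single-cell tables. Nanog was not analysed in single cells.

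They were followed in trophoblast stem cells (TSCs), which are derived from the trophectoderm of the blastocyst, all on a C57BL/6J background. RNA was counted by CEL-Seq2, which tags each captured transcript end with a molecular identifier (UMI), in 4 single-cell libraries, each 1 plate of 384 wells, and in 6 bulk libraries. The blastoid pTSC library holds cells labelled as pTSCs of line pTS1 taken out of blastoids, and the pTSC library holds newly derived pTSCs, which the labels place in LT21 medium. The differentiated TSC library holds line F4 cells after 6 days in Tx medium without FGF4, TGF-beta or heparin, and the TSC library holds line F4 cells in Tx medium. All 4 carry a randomly integrated GFP cassette. The bulk groups, CDX2-high and CDX2-low with 3 libraries each, are TSCs with eGFP knocked in at the CDX2 coding sequence. Blastoids are blastocyst-like structures that form when embryonic stem cells and TSCs are cultured together, while the label of the blastoid library names its pTSCs alone.

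In the early embryo the inner cell mass and then the epiblast keep the pluripotent state, and the trophectoderm gives rise to the placenta. POU5F1 (OCT4) and NANOG are transcription factors at the core of the pluripotency network, and KLF2 and KLF4 are zinc-finger factors that sustain its naive form. FGF4 is made by the epiblast and received by the trophectoderm through FGFR2, which is why TSC media contain it. Several genes of the network, Sox2 and Zfp42 (Rex1) among them, are also used by trophoblast cells.

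The promoters of 7 of the 10 genes were found in RefSeq (GRCm38.p6). Those of Zfp42, which was spread over cells in every library, and of Fgf4 and Tdgf1, whose UMIs lay in few blastoid cells, are shown as the 250 bases before the annotated start. They are read on the strand of the gene, at chr8:43307010-43307259 (minus strand), chr7:144861136-144861385 (plus strand) and chr9:110946159-110946408 (minus strand). Capitals mark matches, on either strand, to the octamer ATTTGCAT read by OCT factors, the SOX motif CATTGTT, the GC box GGGCGG or the CACCC box CCACACCC of SP and KLF factors.
Zfp42: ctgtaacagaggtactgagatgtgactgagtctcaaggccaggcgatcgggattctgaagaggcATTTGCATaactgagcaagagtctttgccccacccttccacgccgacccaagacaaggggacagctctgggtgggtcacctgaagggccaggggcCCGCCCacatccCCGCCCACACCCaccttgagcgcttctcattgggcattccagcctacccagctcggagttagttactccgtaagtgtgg
Fgf4: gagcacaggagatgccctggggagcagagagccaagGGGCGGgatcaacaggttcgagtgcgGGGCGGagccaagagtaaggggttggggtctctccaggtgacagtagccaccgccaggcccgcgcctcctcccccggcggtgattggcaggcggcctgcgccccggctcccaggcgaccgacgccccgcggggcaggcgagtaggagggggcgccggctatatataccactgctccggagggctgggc
Tdgf1: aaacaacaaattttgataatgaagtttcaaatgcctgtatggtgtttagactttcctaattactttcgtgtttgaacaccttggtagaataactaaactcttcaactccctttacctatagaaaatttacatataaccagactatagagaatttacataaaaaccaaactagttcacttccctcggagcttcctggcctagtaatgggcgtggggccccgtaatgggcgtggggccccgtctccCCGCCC
Zfp42 was the only one of the 7 genes whose listed windows held the octamer, 186 bases before its start, and 1.6% of 32851 promoters of this length hold it. The same window held 2 GC boxes, at 91 and 79 bases, and a CACCC box at 75 bases that overlaps the second of them. Fgf4 held 2 GC boxes, at 214 and 188 bases, and Tdgf1 held 1, at 6 bases. A GC box occurs in 32.7% of all promoters, a CACCC box in 3.2% and the SOX motif in 3.29%. A match is a description of the letters, not a binding site.

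Cells were taken as wells whose UMIs, mitochondrial genes left out, came to 2000 or more, which gave 257 blastoid pTSCs (2315931 UMIs), 299 pTSCs (2437481 UMIs), 318 differentiated TSCs (3254559 UMIs) and 318 TSCs (5388767 UMIs). The median cell held between 6844 UMIs (pTSC) and 15091 UMIs (TSC). Each single-cell group is 1 library, so no test between groups was possible. Levels are counts per 1000000 (CPM), from UMIs summed over a library's cells, with exact Poisson 95% intervals that cover counting error only. Levels of different genes are not compared. In the TSC library, relative to bulk, genes with 5 or more annotated transcripts lay at a median log2 ratio of -2.35 (1678 genes), against 0.71 for those with 1 transcript (169 genes). Pou5f1 and Tdh have 6 annotated transcripts, and Dppa5a and Klf2 have 1.

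Some of the genes were found almost only in a few blastoid cells, and others throughout the trophoblast cultures. In the blastoid library Tdgf1, Tdh, Fgf4 and Dppa5a were concentrated, meaning that the 5 cells with most of a gene's UMIs held at least 50% of them. Zfp42 and Klf4 were spread there, with under 25% in 5 cells, and Klf2 lay in between at 40%. Gdf3 and Pou5f1 had fewer than 20 UMIs in every library and were not classed.

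**Figure D1:**
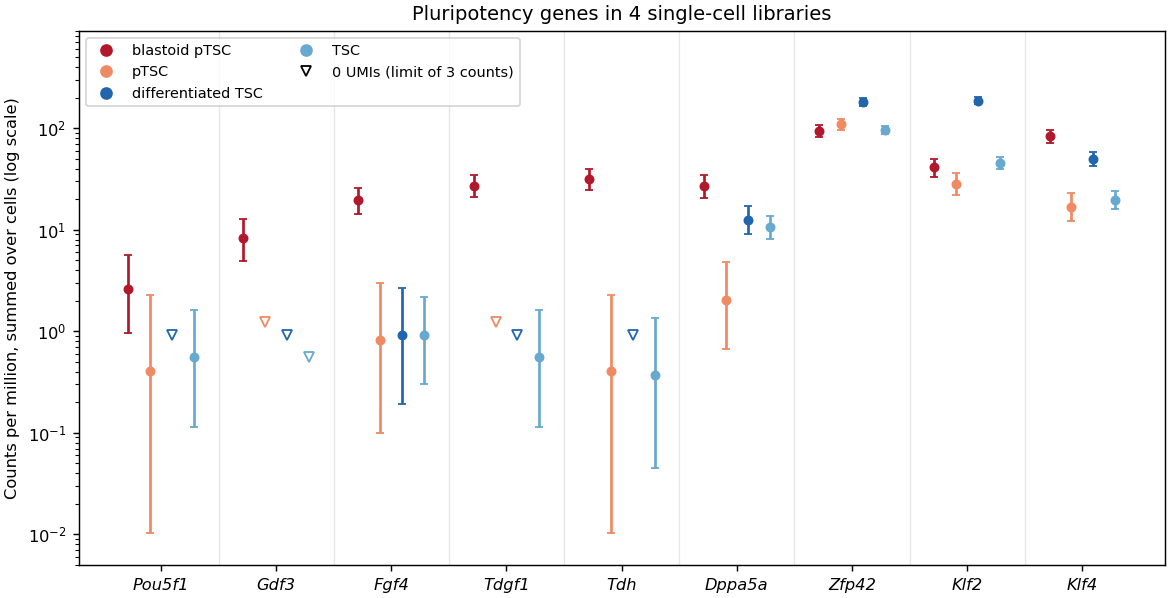
CPM of each gene (log scale) in the blastoid pTSC, pTSC, differentiated TSC and TSC libraries. Points are the library sums with exact Poisson 95% intervals, and open triangles stand at 3 counts where no UMI was found. Pou5f1, Gdf3, Fgf4, Tdgf1 and Tdh had at most 5 UMIs in each library outside the blastoid one, while Zfp42, Klf2 and Klf4 had at least 41.

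Of the core factors, Pou5f1 had 6 UMIs in the blastoid library (2.59 CPM, interval 0.951 to 5.64), against 1 UMI in pTSCs. It had 0 UMIs in differentiated TSCs and 3 in TSCs. Its 6 UMIs lay in 5 blastoid cells. These numbers are too small for the libraries to be told apart at this depth, since the ratio of blastoid pTSCs to pTSCs was 6.31 with an interval of 0.766 to 290.

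Among the secreted ligands, Fgf4 had 45 UMIs in 14 blastoid cells (19.4 CPM, 14.2 to 26.0), against 2 UMIs in pTSCs (0.821 CPM). Differentiated TSCs had 3 Fgf4 UMIs and TSCs 5. The blastoid value lay 23.7-fold above the pTSC value (6.19 to 202). Gdf3, a ligand of the TGF-beta family, had 19 UMIs in 9 blastoid cells and 0 UMIs in each of the other 3 libraries. With 0 set to its limit of 3 counts per library, Gdf3 was 6.67-fold higher in blastoid pTSCs than in pTSCs. The lower end of the counting interval of this ratio was 4.91. Tdgf1 (Cripto), the membrane coreceptor of NODAL, had 63 UMIs in 17 blastoid cells (27.2 CPM, 20.9 to 34.8). It had 0 UMIs in pTSCs, 0 in differentiated TSCs and 3 in TSCs. With 0 set to 3 counts, the blastoid level was 22.1-fold above that of pTSCs, with a lower interval end of 17.5.

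Tdh, the mitochondrial threonine dehydrogenase on which mouse embryonic stem cells depend, had 73 UMIs in 14 blastoid cells (31.5 CPM, 24.7 to 39.6). It had 1 UMI in pTSCs, 0 in differentiated TSCs and 2 in TSCs. The ratio to pTSCs was 76.8, with an interval of 13.4 to 3076 that reflects the single pTSC count. Of the 7 other genes of threonine and glycine breakdown, all measured, 0 were at least 2-fold higher and 1 was at least 2-fold lower in blastoid pTSCs, where 13.4% of 11343 genes were higher and 9.42% lower.

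Dppa5a, which encodes an RNA-binding protein of pluripotent cells, belonged to both patterns. In blastoid pTSCs it had 62 UMIs (26.8 CPM, 20.5 to 34.3) in 20 cells, and 5 cells held 74.2% of them, with up to 16 UMIs in 1 cell. In pTSCs it had 5 UMIs in 4 cells (2.05 CPM, 0.666 to 4.79). In differentiated TSCs its 41 UMIs lay in 30 cells (12.6 CPM, 9.04 to 17.1) and in TSCs its 57 UMIs lay in 47 cells (10.6 CPM, 8.01 to 13.7), with at most 4 UMIs in a cell of either library. The 5 top cells held 31.7% of Dppa5a in differentiated TSCs (in between) and 24.6% in TSCs (spread). Cells with a Dppa5a UMI held a mean of 3.1 in the blastoid library, 1.37 in differentiated TSCs and 1.21 in TSCs. Such cells were 7.78% of blastoid cells, 9.43% of differentiated TSCs and 14.8% of TSCs. With cells thinned to equal depth these shares were 3.11%, 1.89% and 2.83%, with overlapping intervals. The blastoid library thus held more Dppa5a UMIs per cell with a UMI, while a difference in the share of such cells was not detectable at equal depth.

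Zfp42 (Rex1), a zinc-finger protein used as a marker of naive pluripotency, was found in every library. It had 217 UMIs in blastoid pTSCs (93.7 CPM, 81.6 to 107) and 267 in pTSCs (109.5 CPM, 96.8 to 123). Differentiated TSCs had 589 Zfp42 UMIs (181 CPM, 167 to 196) and TSCs 518 (96.1 CPM, 88.0 to 105). The differentiated library was highest, and the intervals of the other 3 overlapped. A Zfp42 UMI was seen in 44.0% of blastoid cells, 48.8% of pTSCs, 62.6% of differentiated TSCs and 61.6% of TSCs. Once each cell was thinned to 2000 UMIs these shares were 16.3% of blastoid cells, 21.7% of pTSCs, 28.6% of differentiated TSCs and 16.0% of TSCs.

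Klf2 was highest in differentiated TSCs, with 605 UMIs in 174 cells (185.9 CPM, 171 to 201), against 245 UMIs in 95 TSCs (45.5 CPM, 39.9 to 51.5). Blastoid pTSCs had 95 Klf2 UMIs in 32 cells (41 CPM, 33.2 to 50.1) and pTSCs 69 UMIs in 46 cells (28.3 CPM, 22.0 to 35.8). Klf4 was highest in blastoid pTSCs, with 192 UMIs in 94 cells (82.9 CPM, 71.6 to 95.5), against 41 UMIs in 37 pTSCs (16.8 CPM, 12.1 to 22.8). Differentiated TSCs had 161 Klf4 UMIs in 100 cells (49.5 CPM, 42.1 to 57.7) and TSCs had 106 in 71 cells (19.7 CPM, 16.1 to 23.8). The pTSC and TSC intervals of Klf4 overlapped.

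Close to the 25% limit, the 5 top cells held 24.6% of Dppa5a in TSCs, 24.6% of Klf2 in pTSCs and 24.0% of Klf4 in blastoid pTSCs, all just inside, and 26.1% of Klf2 in TSCs, just outside.

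**Figure D2:**
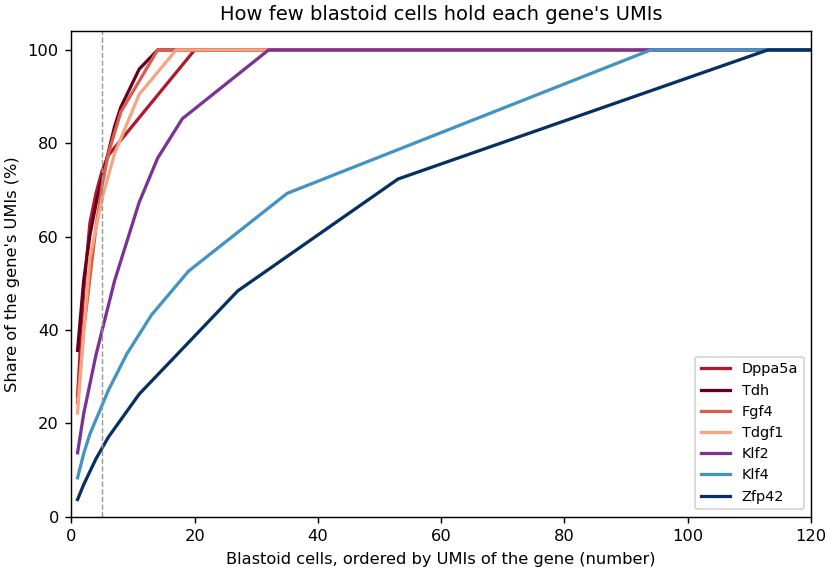
Share of a gene's blastoid UMIs (vertical axis, %) held by the blastoid cells with most of them (horizontal axis, number of cells). The dashed line marks 5 cells, which hold 68.3% of Tdgf1, 71.1% of Fgf4, 72.6% of Tdh and 74.2% of Dppa5a, but 14.7% of Zfp42 and 24.0% of Klf4.

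The concentrated genes met in the same cells. A UMI of at least 4 of the 8 members other than Klf2 and Klf4 was found in 15 of 257 blastoid cells (5.84%, exact binomial interval 3.30% to 9.44%). No such cell was found among 299 pTSCs, which allows a share of up to 1.0% when 0 is set to 3 cells (upper end of the exact binomial interval 1.23%), or among 318 differentiated TSCs or 318 TSCs, which allows up to 0.943% in each (1.15%). Of these 8 genes 7 could be counted, since Nanog could not. Just inside the limit were 6 cells with 4 members, and just outside were 2 cells with 3.

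These 15 cells held 3.65% of the library's UMIs. They held 100% of the UMIs of Gdf3 and Pou5f1, 93.2% of Tdh, 90.3% of Dppa5a, 88.9% of Fgf4 and 81.0% of Tdgf1. They held 18.4% of Zfp42. Since these genes chose the cells, the shares are a description. The deepest cell (18474 UMIs) had 26 UMIs of Tdh, 16 of Dppa5a, 11 of Tdgf1, 11 of Fgf4 and 6 of Gdf3, and no Pou5f1. The cell with most Tdgf1 had 14 of its UMIs, 11 of Tdh and 2 of Pou5f1 among 5287. At the other end, 2 cells had 1 UMI each of 4 genes.

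**Figure D3:**
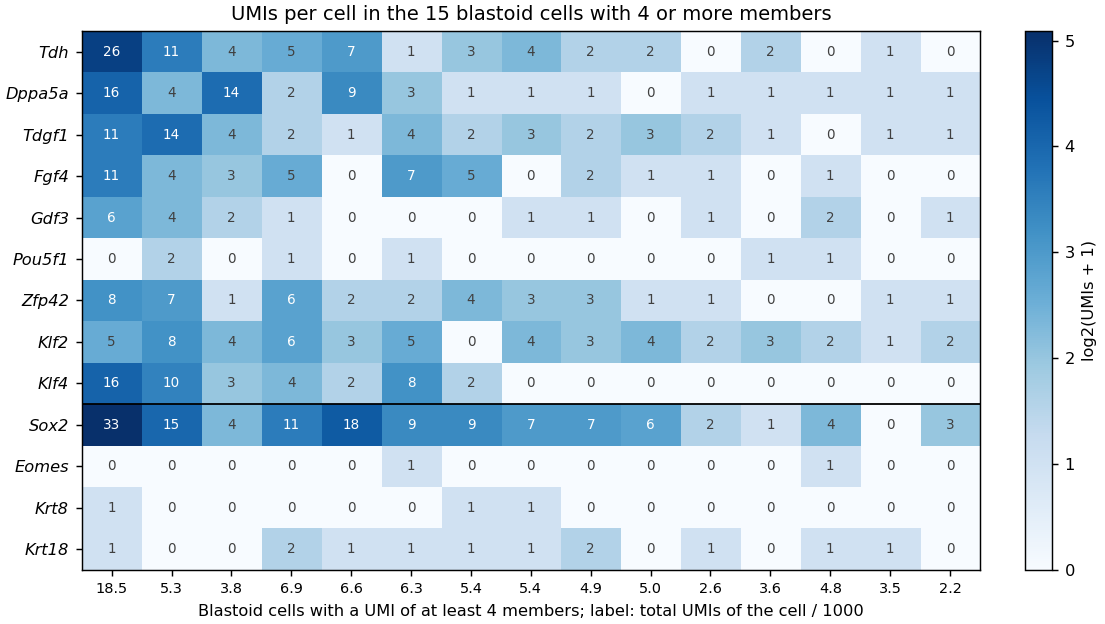
UMIs of the 9 measured members (above the line) and of Sox2, Eomes, Krt8 and Krt18 (below it) in the 15 blastoid cells with at least 4 members. Columns are cells, ordered by their member UMIs and labelled by total UMIs divided by 1000, and colour is log2(UMIs + 1). Sox2 was found in 14 of the cells, while Krt8 never exceeded 1 UMI and Krt18 never exceeded 2.

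Klf2 and Klf4 took no part in choosing these cells. Klf2 stood at 614.5 CPM in the 15 cells (52 UMIs in 14 cells), against 19.3 CPM in the other 242 blastoid cells (43 UMIs in 18 cells), 31.9-fold higher with a counting interval of 20.9 to 48.9. Klf4 stood at 532 CPM in the 15 cells (45 UMIs in 7 cells), against 65.9 CPM in the others (147 UMIs in 87 cells), 8.07-fold higher (5.65 to 11.3). Klf2 was thus found in nearly all of the 15 cells and seldom elsewhere in the blastoid library, whereas Klf4 was also found in 36.0% of the other cells. All cells come from 1 library, and no test was made between them.

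Several other genes of the pluripotency network were higher in the same cells. Of 14 listed genes with at least 10 UMIs over the blastoid library, 10 were at least 2-fold higher in the 15 cells than in the other 242 and 1 was lower. Over all 9362 genes so measured, 19.9% were at least 2-fold higher and 10.5% lower. Of the 10 higher genes 4 (Morc1, Nr5a2, Prdm14 and Fbxo15) had fewer than 10 UMIs in the other cells and met the minimum only through the 15 cells, so they had to be higher. Among the 10 listed genes with at least 10 UMIs in the other cells alone, 6 were higher and 1 lower, where 18.2% of 9166 such genes were higher. Of these 6, Tbx3 (4 against 33 UMIs, 0.823 to 8.99) and Zfp296 (5 against 46, 0.889 to 7.19) had intervals that include no difference. Nr5a2, an orphan receptor that acts on the Pou5f1 promoter, had 14 UMIs, against 2 UMIs in the other cells. Prdm14, a repressor that guards the naive state, had 8 UMIs against 2. Sox2, the partner of OCT4, stood at 1524 CPM, against 286 CPM in the other cells (5.33-fold, 4.38 to 6.45). The gene at least 2-fold lower was Dppa2, with 4 UMIs in the 15 cells and 241 in the others (2.28-fold lower), and its interval of 0.881 to 8.45 includes no difference. Utf1 and Lin28a were less than 2-fold lower, Utf1 at 284 CPM in the 15 cells against 428 CPM in the others (1.51-fold lower, 1.01 to 2.36) and Lin28a at 248 CPM against 436 CPM (1.76-fold lower, 1.14 to 2.85). The genes named here were picked from the list with their values in view.

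Of the 7 partners of TDH in threonine and glycine breakdown, 2 were at least 2-fold higher in the 15 cells and 1 lower. The shares over all 9362 genes measured were 19.9% higher and 10.5% lower. The higher ones were Gcat, the ligase that acts on the product of TDH (2.66-fold, 1.29 to 4.95), and Amt, a subunit of the glycine cleavage system (2.86-fold, 1.86 to 4.24). The lower one was Dld, with 7 against 390 UMIs (2.11-fold lower, 1.02 to 5.29).

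Among the partners of TDGF1 and GDF3 in NODAL signalling, 4 of 10 measured genes were at least 2-fold higher in the 15 cells and 1 lower. Among the 8 with at least 10 UMIs in the other cells 2 were higher. The shares over all genes were 19.9% of 9362 higher and 10.5% lower, and 18.2% of 9166 higher with the minimum met in the other cells. The ligand Nodal was 21.1-fold higher (9.02 to 48.3, 12 against 15 UMIs). Its inhibitor Lefty2 was 41.4-fold higher (14.7 to 126, 11 against 7 UMIs), having met the minimum of 10 only through the 15 cells. The lower gene was Smad3, with 6 against 431 UMIs (2.72-fold lower, 1.24 to 7.46). The receptor Fgfr2 had 0 UMIs in the 15 cells, which held 40 of the 45 Fgf4 UMIs, and 83 UMIs in the other cells. With 0 set to 3 counts the counting interval of this ratio includes 1, so a difference was not detectable at the 84620 UMIs of the 15 cells.

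The label of the library names trophoblast cells, and the 15 cells did not carry trophoblast markers at the level of the others. The summed level of 11 measured trophoblast stem cell markers ran from 0 to 8.20 UMIs per 10000 in them, with a median of 3.67. In the other 242 cells its median was 56.0, and 2 cells were at or below 8.20. Those 2 are the cells with 3 members, and without them the remaining 240 cells all lay above. Of the 16417 UMIs of these markers in the other 242 cells, Krt18 had 9485 and Krt8 3922, so the sum mostly follows these keratins. Of the 11 markers 6 were at least 2-fold lower and Cdx2, Elf5, Tfap2c and Fgfr2 were at 0 in the 15 cells. Krt8 and Krt18, the keratin pair of trophectoderm, stood 49.6-fold lower (17 to 241) and 29.98-fold lower (17.2 to 58.0), and Gata3 32.6-fold lower (5.84 to 1290). Of the markers at 0, Cdx2 had 76 UMIs in the other cells, Elf5 31, Tfap2c 12 and Fgfr2 83. The counting intervals of their ratios include 1, so for these markers a difference was not detectable at this depth. Tead4 was 1.95-fold lower, with an interval of 0.825 to 6.05 that also includes 1.

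**Figure D4:**
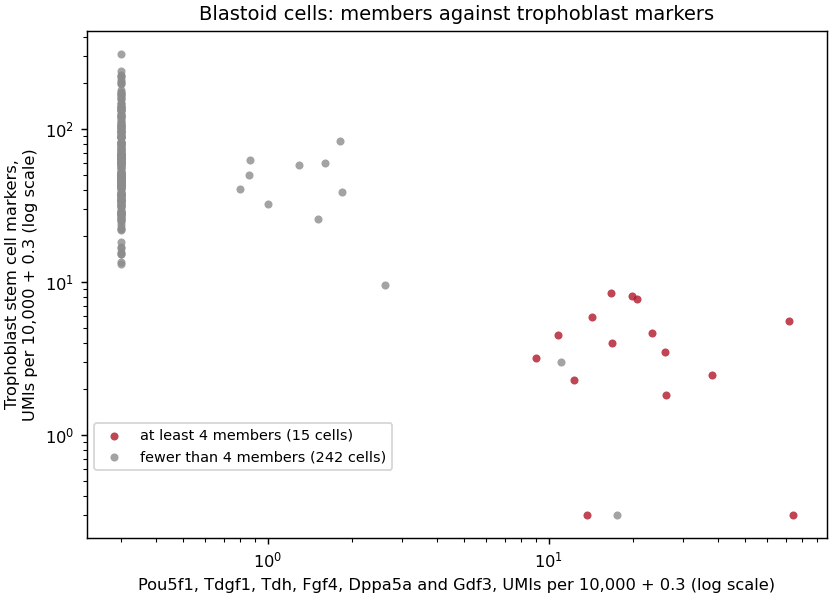
Each of 257 blastoid cells by its summed UMIs per 10000 of Pou5f1, Tdgf1, Tdh, Fgf4, Dppa5a and Gdf3 (horizontal) and of 11 trophoblast stem cell markers (vertical), with 0.3 added, on log scales. The vertical sum mostly follows Krt18 and Krt8. Cells with at least 4 members (red) lie at 8.70 to 73.8 on the horizontal axis before the 0.3 is added and at or below 8.20 on the vertical one, and 230 of the other 242 cells (grey) had none of the 6 genes.

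Markers of other cell types were mixed in the 15 cells. Primitive endoderm markers summed to 343 CPM in them, against 2412 CPM in the other cells. Of the 5382 UMIs of this list in the other cells, Col4a1 had 2550, Col4a2 2352 and Lamb1 411, so the sum mostly follows these genes. Sox17, Pdgfra, Sox7, Dab2, Foxa2, Cubn, Amn and Sparc were at 0 in the 15 cells. Each of them had at most 12 UMIs in the other cells, too few for a difference to be detectable. Of this list Lama1 alone was at least 2-fold higher (14 against 26 UMIs, 14.2-fold, 6.85 to 28.2). Fibroblast markers summed to 70.9 CPM in the 15 cells (6 UMIs), against 18.4 CPM in the others (41 UMIs). Of this list Thy1 was at least 2-fold higher (4 against 9 UMIs, 11.7-fold, 2.64 to 42), having met the minimum of 10 only through the 15 cells. Col1a2, Col3a1, Lum, Pdgfrb, Twist1 and Twist2 were at 0 in the 15 cells and had at most 9 UMIs each in the others. Of these, Col1a2, Lum and Pdgfrb were at 0 in the others too. Germ cell and 2-cell stage markers summed to 23.6 CPM in the 15 cells (2 UMIs), against 5.83 CPM in the others (13 UMIs). The part of these cell types in the results was not tested. The 15 cells were shallower, with a median of 5006 UMIs against 8393.5 in the others, and their mitochondrial share was 13.0% against 19.5% in the others. The part of depth in these results was not tested.

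The plates share well barcodes: 208 well numbers hold a kept cell in both the blastoid and the pTSC library. In the pTSC wells of the same numbers as the 15 cells, 14 of them with a kept cell, there were 0 UMIs of the 8 genes apart from Zfp42. Wells of the blastoid plate with fewer than 200 UMIs (87 wells) held 2 member UMIs in all. Transcripts of the GFP cassette were not analysed here.

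The 15 cells held 240 of the 268 blastoid UMIs of Pou5f1, Tdgf1, Tdh, Fgf4, Dppa5a and Gdf3, and the 240 cells with fewer than 3 members held 10, of which 6 were Dppa5a. The other UMIs lay in the 2 cells with 3 members, and since these genes chose the cells, the counts are a description. In comparison, pTSCs held 9 UMIs of the 6 genes, differentiated TSCs 44 and TSCs 70, most of them Dppa5a. Without Dppa5a there were 4 in pTSCs, 3 in differentiated TSCs and 13 in TSCs.

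The genes most like the concentrated members were ranked by the share of their blastoid UMIs in the 15 cells, among 2009 genes with at least 10 UMIs there, for which the median share was 4.37%. The first 10 that are not members were Ooep (100% of 12 UMIs), Morc1 (100% of 10), Stmn2 (92.5% of 106), Platr10 (91.7% of 12), Jam2 (91.6% of 83), Rian (91.3% of 23), Rps13-ps1 (89.8% of 98), Calcoco2 (87.5% of 16), Nr5a2 (87.5% of 16) and Meg3 (85.0% of 100). Rian and Meg3 are noncoding RNAs of 1 imprinted domain. Over the series several of the 10 were not limited to these cells. Rps13-ps1 had 543 UMIs in differentiated TSCs, Ooep had 17 in TSCs, and pTSCs had 2 Rian and 1 Meg3 UMIs, against 258 Rian and 888 Meg3 UMIs in TSCs. Stmn2 and Jam2 had at most 3 UMIs in each of the other 3 libraries.

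Set against pTSCs, 6 of the 8 members with at least 10 UMIs over both libraries were at least 2-fold higher in blastoid pTSCs and 0 were at least 2-fold lower, where 13.4% of 11343 genes were higher and 9.42% lower. The higher ones were Tdgf1, Tdh, Fgf4, Dppa5a, Gdf3 and Klf4. The first 5 of these had at most 5 UMIs in pTSCs and met the minimum only through the blastoid library, so their count is set by the minimum. Of the 3 members with at least 10 UMIs in pTSCs alone 1, Klf4, was higher, where 7.22% of 9172 such genes were. Klf2 was 1.45-fold higher (1.05 to 2.01) and Zfp42 was 1.17-fold lower (0.974 to 1.40). The labels do not say whether both are line pTS1, and line, culture and plate cannot be told apart.

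Without the 15 cells the comparison with pTSCs was another one. Of 5 measured members 2, Klf4 and Tdgf1, were then at least 2-fold higher, and no share over all genes is given for this setting. Klf4 was 3.92-fold higher (2.75 to 5.68; 65.9 CPM in the 242 blastoid cells, 16.8 CPM in pTSCs). Tdgf1 had 12 UMIs against 0, of which 11 lay in the 2 cells with 3 members. Tdgf1 met the minimum only through the blastoid library, so it had to be higher. Dppa5a was at 2.69 CPM, against 2.05 CPM in pTSCs. Klf2 was 1.47-fold lower (0.989 to 2.20) and Zfp42 1.38-fold lower (1.14 to 1.68).

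The Klf4 level was therefore higher than in pTSCs also outside the 15 cells. Among the 13 other KLF genes, 3 of 10 measured were at least 2-fold higher in blastoid pTSCs, namely Klf10 (3.22-fold), Klf11 (2.65-fold) and Klf13 (2.33-fold), and Klf5 was 2.08-fold lower. The other pluripotency genes were mixed, with 7 of 17 higher and 3 lower in blastoid pTSCs. Among the 12 with at least 10 UMIs in pTSCs, 3 were higher and 3 lower. Over all 11343 genes measured, 13.4% were higher and 9.42% lower. With the minimum met in pTSCs, 7.22% of 9172 genes were higher and 923 genes lower. Nr5a2 had 16 UMIs in blastoid pTSCs against 1 in pTSCs and Morc1 10 against 1. Both met the minimum of 10 only through the blastoid library, where 14 of the Nr5a2 and 10 of the Morc1 UMIs lay in the 15 cells. Fgf5, a marker of the primed epiblast, had 0 UMIs in blastoid pTSCs and 32 in pTSCs, through which alone it met the minimum. Utf1 was 2.35-fold lower in blastoid pTSCs.

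Between pTSCs and TSCs, 0 of 4 measured members were at least 2-fold higher and 1 was at least 2-fold lower in pTSCs, where 17.6% and 13.9% of 12070 genes were. The lower one was Dppa5a, at 2.05 CPM in pTSCs and 10.6 CPM in TSCs (5.16-fold, 2.09 to 16.5). Klf2 was 1.61-fold lower in pTSCs (1.22 to 2.13). Zfp42 was 1.14-fold higher (0.979 to 1.32) and Klf4 1.17-fold lower (0.808 to 1.72), both with intervals that include 1. The pTSC library is also the shallower one, and line and medium differ together.

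In differentiated TSCs, 2 of 4 measured members were at least 2-fold higher than in TSCs and 0 were lower, where 17.5% of 12158 genes were higher and 18.0% lower. Klf2 was 4.09-fold higher (3.52 to 4.76) and Klf4 2.51-fold higher (1.96 to 3.24). Zfp42 was 1.88-fold higher (1.67 to 2.12), and Dppa5a 1.19-fold higher with an interval that includes 1 (0.777 to 1.81). After thinning, a Klf2 UMI was seen in 24.2% of differentiated TSCs and 7.86% of TSCs, and a Klf4 UMI in 10.7% of differentiated TSCs and 3.77% of TSCs.

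Other pluripotency genes were mostly lower in differentiated TSCs. Of 15 measured, 8 were at least 2-fold lower in differentiated TSCs and 1 was higher. Tet1, a DNA demethylase, had 1 UMI in differentiated TSCs and 36 in TSCs, Nr0b1 was 4.86-fold lower and Lin28a was 4.36-fold lower, while Tbx3 was 9.78-fold higher. In the KLF family 2 of 9 were higher, Klf6 (3.08-fold) and Klf10 (2.73-fold), and 0 were lower. Of 11 trophoblast stem cell markers 5 were at least 2-fold lower, with Elf5 at 2 UMIs in differentiated TSCs against 204 in TSCs and Cdx2 at 8 against 269, and 1, Krt8, was higher (6.36-fold). Of the FGF4 receptors, Fgfr2 was 6.04-fold lower and Fgfr4 3.85-fold lower in differentiated TSCs, while Fgf4 itself had 3 UMIs in them and 5 in TSCs. Of 10 measured NODAL signalling partners 2 were at least 2-fold higher and 2 lower, with Nodal 4.14-fold higher. For all the lists of this paragraph, the shares over 12158 genes were 17.5% higher and 18.0% lower.

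Across cells within a library, Zfp42 and Klf2 had few companions. Companions were sought only for a member with at least 200 UMIs in a library. That held for Zfp42 in every library and for Klf2 in both F4 cultures, while Klf4 reached at most 192 UMIs. The correlations below are of log counts per 10000 over cells of 1 library that share plate and depth, and are descriptions. Klf2 was most like Rhob, a small GTPase, in both F4 cultures (r = 0.37 over 318 differentiated TSCs and r = 0.37 over 318 TSCs). In differentiated TSCs a UMI of both was seen in 137 cells. The same pair had r = 0.04 in blastoid pTSCs, or 0.17 over the 242 of them outside the 15 cells, and r = 0.21 in pTSCs. Igsf3 (r = 0.36) followed Rhob in differentiated TSCs. Zfp42 was most like Ifitm3 (r = 0.43), Sfrp1 (r = 0.38) and Sox2 (r = 0.37) over 257 blastoid cells. Without the 15 cells these were r = 0.23, 0.13 and 0.24. In the other 3 libraries no gene reached r = 0.3 with Zfp42. Klf2 and Klf4 did not go together in differentiated TSCs, where both were higher than in TSCs (r = -0.004, 63 cells with both).

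The bulk libraries were shallow, with 157588 to 272030 counts in CDX2-high and 116659 to 138966 in CDX2-low libraries, so 3 counts equal 11.03 to 25.7 CPM. The sort was visible in the Cdx2-eGFP transcript, at 786 ± 51.3 CPM in CDX2-high and 65.7 ± 33.2 CPM in CDX2-low libraries (SD, n = 3 each). Only Zfp42 passed the filter on low counts. It had 19, 44 and 40 counts in CDX2-high libraries, against 9, 9 and 17 counts in CDX2-low libraries. As CPM these were 121, 171 and 147 in CDX2-high, against 77.1, 64.8 and 125.9 in CDX2-low libraries. The mean was 146 ± 25.3 CPM in CDX2-high and 89.3 ± 32.3 CPM in CDX2-low libraries (SD, n = 3 each), and the lowest CDX2-high library lay below the highest CDX2-low library.

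Zfp42 did not pass the test across genes (log2 fold change 0.71, SE 0.33, adjusted p = 0.230, edgeR quasi-likelihood test with Benjamini-Hochberg adjustment over 3006 genes). Thus 0 members were called, where 5.89% of 3006 genes were (93, or 3.09%, higher and 84, or 2.79%, lower in CDX2-high). As Zfp42 was the only member tested, this 0 cannot be weighed against that share. Its unadjusted p was 0.0384 (edgeR quasi-likelihood test), and with DESeq2 the count of members was also 0 at the adjusted threshold. Nothing in the labels says that the 3 libraries of a group came from separate cultures, so the p-values measure the spread between these libraries. In bulk RNA, fewer cells with a transcript and less of it per cell cannot be told apart.

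Klf2 had 4, 3 and 1 counts in CDX2-high libraries, against 8, 2 and 3 in CDX2-low libraries. Klf4 had 1, 2 and 5 counts in CDX2-high, against 4, 1 and 4 in CDX2-low libraries. Dppa5a had 1, 4 and 2 counts in CDX2-high, against 4, 4 and 1 in CDX2-low libraries. The groups overlapped for all 3 genes. Over all 6 libraries Pou5f1 had 4 counts, Tdgf1, Tdh and Fgf4 had 2 each, and Nanog and Gdf3 had 0.

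**Figure D5:**
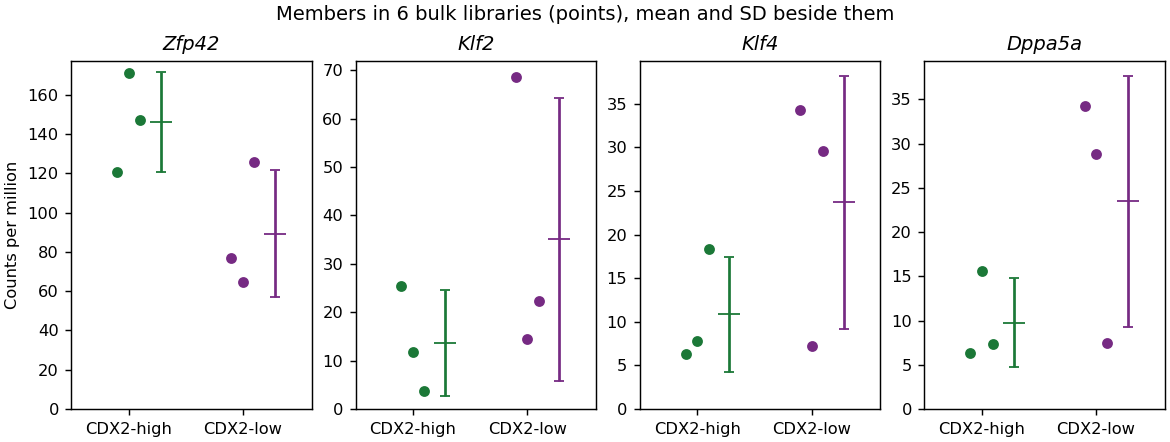
CPM of Zfp42, Klf2, Klf4 and Dppa5a in 3 CDX2-high and 3 CDX2-low libraries. Points are libraries, and the bar beside them is the mean with the SD. The groups overlap for all 4 genes, and Klf2, Klf4 and Dppa5a rest on 1 to 8 counts a library.

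Other genes of the network did separate the bulk groups. Of 9 other pluripotency genes tested, 1 rose and 2 fell in CDX2-high libraries. Dnmt3b, a de novo DNA methyltransferase, rose (412 ± 35.8 CPM in CDX2-high libraries, against 203 ± 61.8 CPM in CDX2-low libraries; SD, n = 3 each; log2 fold change 1.02, adjusted p = 0.0120, edgeR). Its cofactor Dnmt3l fell (log2 fold change -0.96, adjusted p = 0.00858, edgeR), and so did the naive factor Tfcp2l1 (log2 fold change -1.65, adjusted p = 0.000141, edgeR). Klf5, the KLF factor of the early trophectoderm, rose (log2 fold change 1.06, adjusted p = 0.0116, edgeR), 1 of 3 KLF genes tested. Gldc, the decarboxylase of the glycine cleavage system, fell (log2 fold change -1.18, adjusted p = 0.00668, edgeR), 1 of 6 tested in its list. The call of Tfcp2l1 held without any 1 library. Each of the other 4 missed the threshold in at least 1 such fit, namely Dnmt3b without CDX2-low library 42 (adjusted p = 0.0543, edgeR), Dnmt3l without CDX2-high library 37 (0.0663) or 39 (0.0609), Klf5 without CDX2-high library 37 (0.0520), and Gldc without CDX2-high library 38 (0.0549) or 39 (0.0609).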

How the data were processed

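Libraries were made with CEL-Seq2, per the labels' protocols. The submitters' processing notes name STAR 2.5.3a. The sources used here give no genome build, annotation or counter. The deposited bulk values are whole-number counts, not scaled. The deposited single-cell values are whole numbers too and were treated as estimated counts, because the tables do not show whether the authors corrected them for UMI collisions. They were not rounded further.

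For each single-cell library, UMIs were summed over wells holding 2000 or more (mitochondrial genes left out) and divided by their total (CPM). A comparison measured genes with 10 or more counts in its 2 libraries together and called a difference at 2-fold. Intervals (95%) are exact conditional binomial for ratios, exact Clopper-Pearson for shares and exact Poisson for levels, and cover counting error only. No doublet caller was run, since wells were sorted. A gene with no row in a library was taken as 0.

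The bulk comparison used edgeR 4.0.16 (filterByExpr, TMM, quasi-likelihood test, no covariates), with DESeq2 1.42.0 as an alternative, under R 4.3.3. Other steps ran in Python 3.11.15 with pandas 2.3.3, numpy 2.4.6 and scipy 1.17.1. The bulk fit and the intervals were tested on simulated data.

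The members, the gene lists and the limits were chosen with earlier results of these data known. Named genes are the members and list genes at least 2-fold apart (up to 3 a direction) or past the bulk test. Named too are the 10 genes most limited to the blastoid cells with at least 4 members. The last rule names genes with r of at least 0.3 with a member of at least 200 UMIs in a library. A gene that meets the last rule is not reported here.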

Additional observations from a re-analysis of the deposited data

How the results depend on the processing

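No paired analysis was possible because the bulk groups share no replicate number and each single-cell group has 1 library. No direction was reversed for a value that reached 2-fold or passed a test. Without the 15 blastoid cells with at least 4 members, 2 of 5 measured members were at least 2-fold higher than in pTSCs (6 of 8 with them). Of these 2, Tdgf1 met the minimum only through the blastoid library. Without these cells 1 gene, Klf2, was concentrated in place of 4. Klf2, under 2-fold either way, then stood at -0.55 (log2, blastoid pTSCs over pTSCs), against 0.54 with them. Requiring 5 members left 9 cells and thinning to 2000 UMIs left 8, all blastoid. With 10 cells in place of 5, Dppa5a was concentrated in differentiated TSCs, 1 gene against 0, and Klf2 in blastoid pTSCs, 5 genes against 4. Zfp42 then stayed spread in all 4 libraries and Klf2 in differentiated TSCs, while Klf4 was in between in all 4. With the minimum of 10 counts met in pTSCs alone, 1 member, Klf4, was at least 2-fold higher in blastoid pTSCs in place of 6. Against pTSCs in place of TSCs, differentiated TSCs had Dppa5a higher by 2.62 on the log2 scale (0.25 against TSCs). In bulk, DESeq2 called 88 genes against 177 with edgeR, and leaving out each library in turn gave 81 to 189, the lowest without CDX2-high library 39. Leaving out CDX2-high library 37 gave 95 and library 38 gave 102. No member was called under any of the bulk settings, and the adjusted p of Zfp42 ran from 0.0950 (without CDX2-low library 42) to 0.570 (DESeq2). Of the counts answering a comparison, 70 alternatives kept the result and 10 moved it, and for single genes 171 kept it, 12 moved it and 8 bulk alternatives lost a call, 2 of them after thinning the libraries to the smallest total (Klf5 and Gldc). The settings with the minimum met in 1 library, with Zfp42 left out, without the deepest of the 15 cells and with 0.5 counts added were chosen after seeing the data. Depth limits Pou5f1 and Gdf3 in single cells and 9 of the 10 members in bulk.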
